A study of Mus musculus with 24 samples.

Results

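MiR-128 is a brain miRNA that is made from a pair of hairpins in different genes, and the count tables list 3 of its arms: mmu-miR-128-3p, mmu-miR-128-1-5p, and mmu-miR-128-2-5p, written without the mouse prefix from here on. These are 3 of the 1531 mouse entries. They were chosen by name, and the choice was made with their counts by region and by HIBI versus sham known. Their levels and fold changes are therefore given as a description with no test.

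The study sequenced small RNA after neonatal hypoxic-ischemic brain injury (HIBI), to compare brain regions on the side of the ligation with sham controls. The cerebellum is not supplied by the carotid artery, so its exposure was to low oxygen and not to the loss of carotid flow. Right-sided cerebellum, striatum/thalamus, and cortex came from each of 8 CD1 mouse pups at postnatal day 9, giving 24 libraries, 4 per region and group. In the HIBI group the right common carotid artery was cauterized under isoflurane, and after 2 h of recovery the pups spent 30 min at 8% oxygen. In sham control pups the neck was dissected under isoflurane and the artery was not cauterized. While the HIBI pups were in low oxygen, these pups stayed in room air, apart from the dam. Tissue was collected 30 min after the injury in both groups, 200 ng of RNA entered each library, and no group had hypoxia or ligation alone. HIBI pups were numbered 1, 4, 5, and 7, and sham pups 2, 3, 6, and 8. Pups of both sexes were used.

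A miRNA hairpin is cut into a 5p and a 3p arm, and the arm that is retained by an Argonaute protein guides it to target mRNAs through its seed, a short stretch near the 5′ end. MiR-128 is abundant in the brain, is enriched in neurons, and is known for restraining neuronal excitability. Its hairpins lie in the introns of R3hdm1, which encodes a protein with an R3H domain, and of Arpp21, which encodes a cyclic AMP-regulated phosphoprotein that is prominent in striatal neurons.

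On GRCm38, Mir128-1 lies at chr1:128202361-128202430 on the plus strand, in intron 19 of 26 of the transcript R3hdm1-201. Mir128-2 lies at chr9:112118636-112118711 on the minus strand, in intron 17 of 18 of Arpp21-201. Each has the orientation of its host, and none of the 16 annotated R3hdm1 transcripts or 31 annotated Arpp21 transcripts has an exon that overlaps the hairpin (GENCODE M21). Mature sequences of all 3 arms were found in RefSeq (GRCm38.p6). The 3p arm is the same 21 bases from both hairpins, at chr1:128202404-128202424 and chr9:112118644-112118664, so its reads cannot be assigned to a locus. The 5p arms can: miR-128-1-5p lies at chr1:128202369-128202389 and miR-128-2-5p at chr9:112118679-112118701. The arms are shown 5′ to 3′ because the 5p sequences are what separates the hairpins, with the seed (bases 2 to 8) in capitals.
miR-128-3p: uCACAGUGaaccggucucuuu
miR-128-1-5p: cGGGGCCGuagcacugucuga
miR-128-2-5p: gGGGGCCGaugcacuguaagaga
The 5p arms have the same seed. Counted from 1 at the 5′ end without gaps, they differed at 5 of 21 bases, C1G, U9A, A10U, C18A, and U19A, with the base of miR-128-1-5p given first. No other mouse miRNA among the 1679 mature names in the sequence table had either seed.

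The hairpins are shown to place the arms, which stand in capitals here.
Mir128-1: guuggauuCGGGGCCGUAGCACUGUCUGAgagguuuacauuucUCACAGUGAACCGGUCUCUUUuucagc
Mir128-2: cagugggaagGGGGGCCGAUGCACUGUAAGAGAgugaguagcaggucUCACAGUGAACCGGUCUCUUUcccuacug
In both, the 3p arm is followed by a few bases at the end of the hairpin, and the sequences outside the 3p arm differ.

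The depth was the number of counts on mouse miRNAs. In the cerebellum it was 1733810 to 2940887 per library (median 2396825.5) in the sham group and 1254185 to 2452740 (median 2165607.5) in the HIBI group. In the striatum/thalamus it was 1607306 to 2373239 (median 2058329) in sham and 1272808 to 2368665 (median 1857952.5) in HIBI. In the cortex it was 2160270 to 3406624 (median 2905591.5) in sham and 1812883 to 3049198 (median 2387060.5) in HIBI. The median was lower in HIBI than in sham in each region, and the shallowest library was the cerebellum of HIBI pup 1.

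Levels are given as CPM of the mouse counts after TMM normalization over the 24 libraries. The tissue labels were checked with miRNAs known for the brain and for the cerebellum. MiR-9-5p and miR-124-3p summed to between 58499 and 153046 CPM in every library. MiR-195a-5p and miR-497a-5p, used as cerebellar markers, summed to 508 to 1110 CPM in the cerebellum, 148 to 280 in the cortex, and 37.6 to 86.9 in the striatum/thalamus. The cerebellar pair thus set the regions apart without overlap, and no marker of cortex or of striatum/thalamus was used. The lists were chosen with earlier results of these data known, so this is a description and no independent check.

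MiR-128-3p, the guide arm known for the effects of miR-128, was the highest of the arms in every library, and its level was highest in the cortex. In sham cortex it was at 87528 CPM in pup 2, 93722 in pup 3, 83985 in pup 6, and 104518 in pup 8. In sham cerebellum the same pups had 36651, 27537, 31097, and 42505 CPM. In sham striatum/thalamus they had 25923, 38390, 39436, and 21372 CPM. All cortex libraries were above all libraries of the other regions, while the cerebellum and striatum/thalamus overlapped, with pups 3 and 6 high and pups 2 and 8 low in the striatum/thalamus.

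The means were 92438 ± 9002 CPM (SD, n = 4) in sham cortex, 34448 ± 6551 in cerebellum, and 31280 ± 9018 in striatum/thalamus. In sham cortex miR-128-3p took 9.00% ± 0.692 (SD, n = 4) of the counts and ranked 2 among all mouse entries in each of the 8 cortex libraries, HIBI included. It ranked 7 to 12 in the other libraries. Sham cortex was 2.68-fold above cerebellum (log2 1.42, SE 0.232) and 2.96-fold above striatum/thalamus (log2 1.56, SE 0.233). The log2 difference between striatum/thalamus and cerebellum was −0.14 (SE 0.228), within the spread of both, and 0.12 without sham pup 8. Within single sham pups the cortex was higher than the cerebellum in 4 of 4, by 2.39-fold to 3.40-fold. In whole tissue, fewer cells of a type and less RNA per cell cannot be told apart.

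MiR-128-1-5p, the partner arm from the R3hdm1 locus, was the scarcest arm in each library. Its raw counts in sham cortex were 121, 148, 123, and 177 in pups 2, 3, 6, and 8, which is 54.4, 47.2, 37.2, and 74.1 CPM. In sham cerebellum they were 32, 15, 34, and 35 counts, or 13.9, 8.05, 15.8, and 13.7 CPM. In sham striatum/thalamus they were 21, 7, 15, and 14 counts, or 12.3, 2.93, 7.16, and 6.93 CPM. The cortex libraries were above all others, and the cerebellum and striatum/thalamus overlapped through the higher pup 2 in the striatum/thalamus and the low pup 3 in the cerebellum.

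The sham means were 53.2 ± 15.6 CPM (SD, n = 4) in cortex, 12.9 ± 3.34 in cerebellum, and 7.33 ± 3.85 in striatum/thalamus. The log2 difference was 2.04 (SE 0.361) for cortex minus cerebellum and 2.87 (SE 0.381), or 7.32-fold, for cortex minus striatum/thalamus. For striatum/thalamus minus cerebellum it was −0.83 (SE 0.379), with overlapping groups, although the cerebellum was the higher of both in 4 of 4 sham pups.

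MiR-128-2-5p, the partner arm from the Arpp21 locus, had a different order of regions. It was at 179, 185, 145, and 246 CPM in sham cortex, from 399, 581, 479, and 588 counts in pups 2, 3, 6, and 8. In sham cerebellum it was at 249, 206, 121, and 184 CPM, from 573, 384, 260, and 468 counts. In sham striatum/thalamus it was at 61.0, 62.7, 64.4, and 76.7 CPM, from 104, 150, 135, and 155 counts. Cortex and cerebellum overlapped over nearly their whole range, with pup 6 the lowest in both, and all striatum/thalamus libraries were lower than either.

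Its sham means were 189 ± 42.1 CPM (SD, n = 4) in cortex, 190 ± 53.4 in cerebellum, and 66.2 ± 7.14 in striatum/thalamus. Cortex minus cerebellum was −0.01 on the log2 scale (SE 0.324), a value without a stable direction: it was 0.04 with library size only and with DESeq2, and 0.17 without sham pup 2. It was −0.25 without sham pup 8 and −0.05 with the 12 sham libraries only. Cortex minus striatum/thalamus was 1.51 (SE 0.334), or 2.85-fold, and striatum/thalamus minus cerebellum was −1.52 (SE 0.335). In sham tissue the groups did not overlap for 2 of the 3 arms between cortex and cerebellum, 1 of 3 between striatum/thalamus and cerebellum, and 3 of 3 between cortex and striatum/thalamus. Of the 435 miRNAs with an average above 10 CPM, 54.5%, 56.1%, and 38.9% did not overlap in these comparisons. The arms were chosen with these values known, so that nothing is read from their counts. Levels of other miRNA lists also differed between regions, and their ranges are given over HIBI and sham libraries together. The summed level of miR-219a-2-3p and miR-338-3p, oligodendrocyte miRNAs, was 4792 to 8318 CPM in the cerebellum, 1046 to 4180 in the striatum/thalamus, and 787 to 2547 in the cortex. The skeletal muscle list (miR-1a-3p, miR-133a-3p, and miR-206-3p) summed to 345 to 651 CPM, 39.3 to 141, and 28.4 to 64.4, in the same order. The choroid plexus and ciliated epithelium list, whose members are given below, summed to 2558 to 10184 CPM, 1883 to 4642, and 2035 to 3754, with overlap. The part of these lists in the regional levels of miR-128 was not tested.

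**Figure D1:**
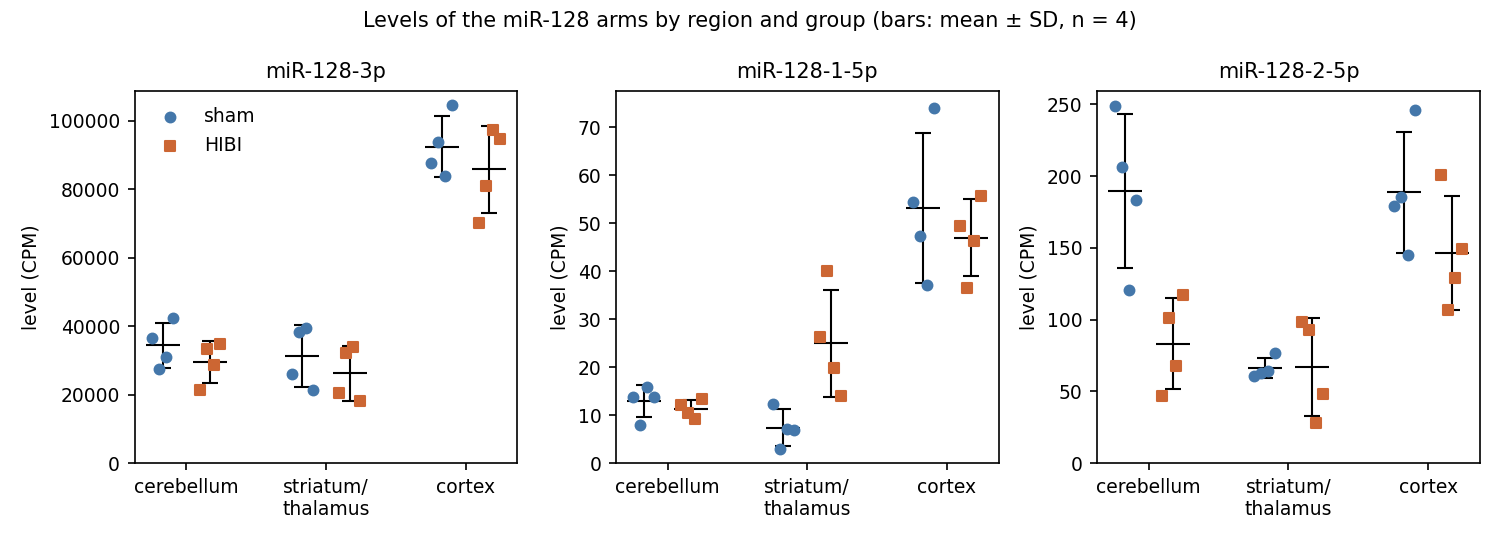
Levels (CPM, linear axes from 0) of the miR-128 arms in the 24 libraries by region, with sham as circles and HIBI as squares; each point is a pup, and the black marks give the mean ± SD of 4 pups. MiR-128-3p is highest in the cortex in both groups and miR-128-1-5p in sham pups, miR-128-2-5p is lower in HIBI than in sham cerebellum, and miR-128-1-5p is higher in HIBI than in sham striatum/thalamus.

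The share of miR-128-2-5p among the reads of both 5p arms compares the hairpins within a library and needs no normalization. It was 93.1% ± 3.38 (SD, n = 4) in sham cerebellum, 90.1% ± 5.16 in sham striatum/thalamus, and 78.2% ± 1.64 in sham cortex. Intervals for single libraries are exact Clopper-Pearson 95% intervals and cover counting error only, since the reads are not known to be independent molecules. The lowest sham cerebellum library was 88.4% (84.2 to 91.9) in pup 6 and the highest sham cortex library was 79.7% (76.6 to 82.6) in pup 3. The lowest sham striatum/thalamus library, 83.2% (75.5 to 89.3) in pup 2, was also above each sham cortex library. Sham cortex thus had the lowest share in all 4 pups, while cerebellum and striatum/thalamus overlapped.

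Both 5p arms together were sparse beside the 3p arm. They made 0.599 ± 0.173 reads per 100 3p reads (SD, n = 4) in sham cerebellum, 0.257 ± 0.103 in sham striatum/thalamus, and 0.260 ± 0.0375 in sham cortex. The sham cerebellum libraries held 0.716, 0.778, 0.438, and 0.464 in pups 2, 3, 6, and 8, all above the highest of the other sham libraries, 0.391 in the striatum/thalamus of pup 8. For miR-128-2-5p alone the sham ratio was 0.562 ± 0.179 per 100 3p reads in cerebellum, 0.230 ± 0.0923 in striatum/thalamus, and 0.203 ± 0.0260 in cortex. For miR-128-1-5p it was 0.0375 ± 0.00948, 0.0264 ± 0.0174, and 0.0569 ± 0.0119 in the same order. Efficiencies of ligation and alignment can differ between arms, so the ratios are compared between libraries and not read as numbers of molecules.

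After HIBI, the arms are described in each region by the log2 fold change from the 8 libraries of that region and by the overlap of the groups. The HIBI and sham values of 1 of the 3 arms did not overlap in the cerebellum, of 1 in the striatum/thalamus, and of 0 in the cortex, beside 3.92%, 1.83%, and 3.41% of all miRNAs. The arms were selected on this contrast, and nothing is read from these counts. For other miRNAs the criteria of differential expression were a fold change above 1.5 with an unadjusted p under 0.05 in edgeR's quasi-likelihood test, at an average above 10 CPM. In the cerebellum 3.69% of 434 miRNAs met them with a higher and 4.15% with a lower level in HIBI. In the striatum/thalamus the shares of 436 were 2.52% higher and 0.229% lower, and those of 410 in the cortex were 3.17% and 0.244%.

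In the cerebellum the arm without overlap was miR-128-2-5p. HIBI pups 1, 4, 5, and 7 had 46.9, 101, 67.5, and 117 CPM, from 73, 221, 174, and 262 counts. The sham pups had 249, 206, 121, and 184 CPM. All HIBI libraries were below all sham libraries, with a narrow gap between HIBI pup 7 and sham pup 6, and HIBI pup 1, the shallowest library, was the lowest. That library also had the highest TMM factor (1.24) and the lowest sums of the 8 for the cerebellar markers (508 CPM, next lowest 807), the brain markers (81540), and the neuron-enriched list (92962). For the neuron-enriched list HIBI pups 4, 5, and 7 had 155621, 183786, and 160961 CPM. Sham pups 2, 3, 6, and 8 had 125647, 106197, 133466, and 175030 CPM, so that the groups overlapped. The mean was 83.1 ± 31.7 CPM (SD, n = 4) after HIBI and 190 ± 53.4 in sham, a fold of 0.443 (log2 −1.17, SE 0.316). Scaling moved the median of all miRNAs in this region, from a log2 of 0.11 under TMM to 0.27 with library size only and −0.02 with upper quartile normalization. The log2 fold change of miR-128-2-5p moved with it, at −1.17, −1.02, and −1.31 in turn, and relative to the median under TMM it was −1.28.

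MiRNAs of other cells are given beside this difference. The erythrocyte list (miR-451a, miR-144-3p, and miR-486a-5p, its most abundant) summed to 1282, 1155, 735, and 1325 CPM in sham pups 2, 3, 6, and 8, and to 658, 787, 579, and 725 in HIBI pups 1, 4, 5, and 7 of the cerebellum. The low sham pup 6 was the lowest sham pup for miR-128-2-5p as well. Of 2 members tested, 1 met the criteria, miR-486a-5p, at a log2 of −0.86 (SE 0.272, adjusted p = 0.432 in edgeR's quasi-likelihood test). The other, miR-451a, was at −0.23 (SE 0.383). MiR-144-3p had no read in the cerebellum of HIBI pup 7. The choroid plexus and ciliated epithelium list (miR-204-5p, its most abundant, miR-211-5p, miR-34b-3p, miR-34c-5p, and miR-449a-5p) summed to 10184, 4636, 2558, and 4622 CPM in the sham pups and to 3330, 2826, 2764, and 4054 in the HIBI pups, with none of its members at 0 and 0 of 4 tested meeting the criteria. The groups overlapped, and sham pup 2 stood apart with the highest sum and the highest miR-128-2-5p. The skeletal muscle list summed to 601, 447, 535, and 494 CPM in the sham pups and to 345, 473, 651, and 454 in the HIBI pups. Of its 3 members, 1 met the criteria and was higher after HIBI, miR-1a-3p, with a log2 of 1.05 (SE 0.481, adjusted p = 0.432 in the same test), while miR-206-3p, the most abundant, was at −0.53 (SE 0.205). Their part in the lower miR-128-2-5p was not tested. The log2 fold change of miR-128-2-5p was −0.99 without HIBI pup 1 and −1.06 without sham pup 2.

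The other arms showed smaller differences in the cerebellum. MiR-128-3p was at 21234, 33389, 28574, and 34827 CPM in HIBI pups 1, 4, 5, and 7, inside or below the sham range, with pup 1 the lowest of the 8 libraries. Its log2 fold change was −0.20 (SE 0.202), −0.09 without HIBI pup 1, and −0.30 without sham pup 3. MiR-128-1-5p was at 12.2, 10.5, 9.31, and 13.4 CPM, all within the sham range, with a log2 fold change of −0.15 (SE 0.348) that was 0.00 with library size only. The 5p reads per 100 3p reads were 0.279, 0.333, 0.269, and 0.374 after HIBI, a mean of 0.314 ± 0.0494 (SD, n = 4). Every HIBI cerebellum was below every sham cerebellum in this ratio, whose 5p reads were mostly miR-128-2-5p, so that it restates the lower level of that arm. The share of miR-128-2-5p was 86.9% ± 5.15 (SD, n = 4) after HIBI, with the lowest library at 79.3% (69.6 to 87.1) in pup 1 and the highest at 90.6% (86.2 to 93.9) in pup 4, and it overlapped the sham group.

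In the striatum/thalamus the arm without overlap was miR-128-1-5p. HIBI pups 1, 4, 5, and 7 had 37, 59, 41, and 33 counts, or 26.3, 40.0, 19.9, and 13.9 CPM. The sham pups had 21, 7, 15, and 14 counts, or 12.3, 2.93, 7.16, and 6.93 CPM. All HIBI libraries were above all sham libraries, though HIBI pup 7 lay just above sham pup 2. The mean was 25.0 ± 11.2 CPM (SD, n = 4) after HIBI and 7.33 ± 3.85 in sham, a 3.18-fold difference (log2 1.67, SE 0.493). The arm passed the minimum of 10 CPM only through the HIBI libraries: before TMM scaling its average was 24.4 CPM in HIBI and 7.53 in sham. A miRNA that passes in this way has to differ in that direction, so its difference carries no weight as a finding.

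Beside this difference, the choroid plexus and ciliated epithelium list summed to 1890, 3273, 4642, and 2401 CPM in HIBI pups 1, 4, 5, and 7 and to 1883, 2606, 2381, and 2018 in sham pups 2, 3, 6, and 8 of the striatum/thalamus, with overlapping groups and no member at 0. Of its 5 members, 1 met the criteria and was higher after HIBI, miR-34b-3p, with a log2 of 0.75 (SE 0.262, adjusted p = 0.980 in edgeR's quasi-likelihood test). MiR-211-5p went the other way, at −0.68 (SE 0.571). MiR-204-5p was at 0.31 (SE 0.304), miR-34c-5p at 0.59 (SE 0.376), and miR-449a-5p at 0.72 (SE 0.579). The erythrocyte list summed to 815, 1420, 510, and 786 CPM in HIBI and 717, 701, 843, and 862 in sham, and HIBI pup 4, the highest, was also the highest for miR-128-1-5p. Its tested members went opposite ways, with miR-451a at a log2 of −0.86 (SE 0.527) and miR-486a-5p at 0.23 (SE 0.312). MiR-144-3p had no read in 7 of these 8 libraries. The neuronal miR-124-3p was lower after HIBI without overlap, at 34164 ± 4235 CPM beside 42332 ± 5516 in sham (SD, n = 4), with a log2 of −0.40 (SE 0.162, adjusted p = 0.980). Other members of the neuron-enriched list went the other way, such as miR-137-3p (0.86) and miR-132-3p (0.26), and the median of its 10 tested members was −0.09. The oligodendrocyte miR-219a-2-3p and miR-338-3p were at −0.61 (SE 0.328) and −0.62 (SE 0.495), and the muscle miR-1a-3p and miR-206-3p at −0.72 (SE 0.414) and −0.68 (SE 0.362), with overlapping sums of each list. MiR-133a-3p, the other muscle miRNA, was too low to be tested and was higher after HIBI on average (6.33 CPM, sham 3.16). The part of these miRNAs in the higher miR-128-1-5p was not tested.

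MiR-128-2-5p did not follow its partner in the striatum/thalamus. It was at 98.7, 92.8, 28.2, and 48.1 CPM in HIBI pups 1, 4, 5, and 7, on both sides of the narrow sham range of 61.0 to 76.7. Its spread was wider after HIBI, with a coefficient of variation of 51.3% beside 10.8% in sham. The log2 fold change was −0.09 (SE 0.359) in the regional fit and 0.01 in the model of all 24 libraries, and it was above 0 without HIBI pup 5 (0.16), HIBI pup 7 (0.13), or sham pup 8 (0.10). It was further below 0 without HIBI pup 1 (−0.25) and with pup as replicate block (−0.20). MiR-128-3p was at 20401, 32145, 33972, and 18258 CPM, overlapping the sham libraries, with a log2 fold change of −0.35 (SE 0.264). This value was −0.12 without HIBI pup 7 and −0.52 without HIBI pup 5.

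The share of miR-128-2-5p in the striatum/thalamus was 83.2% (75.5 to 89.3), 95.5% (91.0 to 98.2), 90.0% (84.0 to 94.3), and 91.7% (86.5 to 95.4) in sham pups 2, 3, 6, and 8. It was 79.0% (72.2 to 84.7), 69.9% (63.0 to 76.2), 58.6% (48.2 to 68.4), and 77.6% (69.9 to 84.0) in HIBI pups 1, 4, 5, and 7. All HIBI libraries were below all sham libraries, but the interval of sham pup 2 overlapped those of HIBI pups 1, 4, and 7, and that of sham pup 6 overlapped that of HIBI pup 1. The means were 90.1% ± 5.16 (SD, n = 4) in sham and 71.3% ± 9.34 in HIBI. In HIBI pups 1 and 4, where miR-128-2-5p was above its sham range, the lower share restates the higher miR-128-1-5p. In HIBI pups 5 and 7 miR-128-2-5p was below that range (28.2 and 48.1 CPM), so that both arms enter their lower share. The 5p reads per 100 3p reads were 0.257 ± 0.103 in sham and 0.377 ± 0.195 in HIBI and overlapped.

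In the cortex HIBI and sham overlapped for each arm. MiR-128-3p was at 70174, 81066, 97180, and 94787 CPM in HIBI pups 1, 4, 5, and 7, a mean of 85802 ± 12608 (SD, n = 4). Its log2 fold change was −0.11 (SE 0.150), −0.01 without HIBI pup 1, and −0.17 without HIBI pup 5. MiR-128-1-5p was at 49.3, 36.4, 46.4, and 55.7 CPM, with a log2 fold change of −0.19 (SE 0.262) that was 0.02 without sham pup 8. MiR-128-2-5p was at 201, 107, 129, and 149 CPM, with a log2 fold change of −0.38 (SE 0.223). This value was −0.21 without sham pup 8 and −0.55 without HIBI pup 1. HIBI pups 4 and 5 were below all sham pups for miR-128-2-5p, and pup 1 was above all but sham pup 8. The share of miR-128-2-5p was 75.3% ± 3.38 (SD, n = 4) after HIBI, from 72.8% (68.9 to 76.5) in pup 7 to 80.3% (76.3 to 83.8) in pup 1, and overlapped the sham share.

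**Figure D2:**
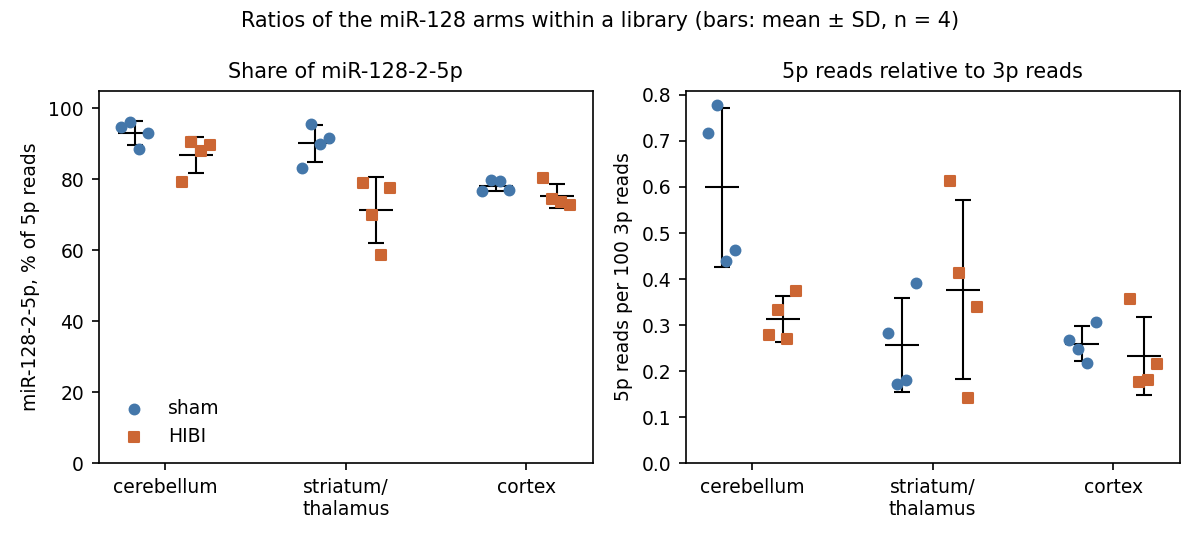
Share of miR-128-2-5p among 5p reads (%, left) and 5p reads per 100 3p reads (right) in the 24 libraries by region, with sham as circles and HIBI as squares; each point is a pup, and the black marks give the mean ± SD of 4 pups. The share is lower in HIBI than in sham striatum/thalamus without overlap (71.3% and 90.1% on average). The higher miR-128-1-5p enters this lower share, and in some HIBI pups a miR-128-2-5p below its sham range enters as well. The ratio is lower in HIBI than in sham cerebellum without overlap (0.314 and 0.599).

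The difference of the HIBI effect between regions was estimated as an interaction in the model of 24 libraries. For miR-128-1-5p the effect in the striatum/thalamus was above that in the cerebellum by 1.96 (log2, SE 0.526), and the effect in the cortex minus that in the striatum/thalamus was −1.95 (SE 0.507). For miR-128-2-5p the effect in the striatum/thalamus minus that in the cerebellum was 1.20 (SE 0.468), and was 0.60 without HIBI pup 1. Cortex minus cerebellum was 0.82 (SE 0.462) for this arm, and 0.43 without that pup. For miR-128-3p the largest of the 3 such differences was 0.15 (SE 0.322), smaller than its error, and ranged from −0.04 (without HIBI pup 7) to 0.45 (without sham pup 8) with a pup left out. These are descriptions too, since the arms were chosen on the same values.

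The order of striatum/thalamus and cerebellum for miR-128-1-5p differed between sham and HIBI pups. It was lower in the striatum/thalamus than in the cerebellum in 4 of 4 sham pups and higher in 4 of 4 HIBI pups, with a log2 difference of 1.13 (SE 0.365) for striatum/thalamus minus cerebellum after HIBI. MiR-128-2-5p was higher in the cortex than in the cerebellum in 4 of 4 HIBI pups and 2 of 4 sham pups, and the log2 difference after HIBI was 0.81 (SE 0.329) with overlapping groups, or 0.39 without HIBI pup 1. MiR-128-3p kept its order, with the cortex above the cerebellum by a log2 of 1.54 (SE 0.233) and above the striatum/thalamus by 1.71 (SE 0.234) after HIBI. In HIBI pups 2 of the 3 arms did not overlap between cortex and cerebellum, 1 of 3 between striatum/thalamus and cerebellum, and 2 of 3 between cortex and striatum/thalamus. The shares of all 435 miRNAs were 34.0%, 40.2%, and 29.7%, and nothing is read from the counts of arms.

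The arms were also compared with each other. Over the 24 libraries the Pearson correlation of log2(CPM + 1) was 0.731 between miR-128-3p and miR-128-1-5p, 0.588 between miR-128-3p and miR-128-2-5p, and 0.482 between the 5p arms. For deviations from the 6 group means the values were 0.117, 0.0674, and 0.339. The points share pups and library scaling, and the correlations are given with no test.

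Among 432 other miRNAs, those most like miR-128-3p over the 24 libraries were miR-708-5p (r = 0.895), miR-22-5p (0.805), and miR-331-5p (0.805). Those whose deviations from the group means were most like its own were miR-181b-5p (0.887), miR-195a-5p (0.867), and miR-93-5p (0.850). For miR-128-1-5p they were miR-673-5p (0.738), miR-139-5p (0.737), and miR-708-5p (0.736) over the libraries, and miR-124-5p (0.619), miR-204-3p (0.590), and miR-181a-1-3p (0.586) for deviations. For miR-128-2-5p they were miR-181c-3p (0.741), miR-30d-5p (0.716), and miR-181a-5p (0.702), and for deviations miR-194-2-3p (0.763), miR-1198-5p (0.668), and miR-486a-5p (0.639). MiR-708-5p is the name shared by miR-128-3p and miR-128-1-5p, and no name was shared between either of these and miR-128-2-5p. The last miRNA named for miR-128-2-5p is the most abundant of the erythrocyte list.

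Other miRNAs with a pair of hairpins give a scale for the shares. The tables list 20 such names besides miR-128 with a separate arm for each hairpin and a common arm. Of these, 10 had at least 100 reads of the separating arms in pooled sham counts of each region, a minimum chosen after the values were seen. Pooled in this way, miR-128-2-5p was 93.6% of the 5p reads in cerebellum, 90.5% in striatum/thalamus, and 78.2% in cortex, a range of 15.3 percentage points. The range was larger for 3 of the 10, miR-135a (35.7 points), miR-129 (29.9), and miR-7a (23.8), and smaller for 7, with a median of 11.7 over the 10. The separating arms of miR-128 were 0.230 to 0.579 per 100 reads of the common arm, and in 8 of the 10 the lowest regional value was above this range. The 8 include miR-29b, whose common arm had only 8, 33, and 25 pooled sham reads in cerebellum, striatum/thalamus, and cortex. Of the separating arms of the 20 names, 21 were tested in the cerebellum, where 1 was higher and 0 lower after HIBI by the criteria. In the striatum/thalamus 0 of 17 and in the cortex 0 of 18 met them in either direction, in edgeR's quasi-likelihood test at an unadjusted p under 0.05.

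MiR-27a-3p and miR-27b-3p hold the letters of the miR-128-3p seed shifted by 1 base, at bases 3 to 9, and are shown for that reason, with their own seeds in capitals (RefSeq, GRCm38.p6).
miR-27a-3p: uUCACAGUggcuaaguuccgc
miR-27b-3p: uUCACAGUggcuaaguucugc
They lie at chr8:84208727-84208747 and chr13:63300760-63300780 on the plus strand, and both were far below miR-128-3p. In sham cortex miR-27b-3p was at 2432 ± 204 CPM and miR-27a-3p at 96.8 ± 3.91 (SD, n = 4). Both were higher in sham cortex than in striatum/thalamus, by a log2 of 0.85 for miR-27b-3p (adjusted p = 0.00119) and 0.74 for miR-27a-3p (adjusted p = 0.0391) in edgeR's quasi-likelihood test. Both were lower in sham striatum/thalamus than in cerebellum, at −0.70 (adjusted p = 0.00196) and −0.67 (adjusted p = 0.0379) in the same test. Of all 435 miRNAs, 33.1% and 62.8% passed in these comparisons in either direction. Neither passed the test between cortex and cerebellum, where their log2 differences were 0.15 (adjusted p = 0.502) and 0.08 (adjusted p = 0.828). After HIBI 0 of 2 met the criteria in each region, and miR-27b-3p had log2 fold changes of 0.16 (SE 0.187), −0.29 (SE 0.227), and −0.04 (SE 0.142) in cerebellum, striatum/thalamus, and cortex.

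Neuron-enriched miRNAs serve for comparison, since miR-128 belongs with them in the brain. They were miR-9-5p, miR-9-3p, miR-124-3p, miR-129-5p, miR-132-3p, miR-134-5p, miR-137-3p, miR-138-5p, miR-153-3p, miR-212-3p, and miR-218-5p. Of the 11, all but miR-153-3p were tested, at an adjusted p under 0.05. In sham cortex 6 were higher and 0 lower than in cerebellum, beside 58.6% of all 435 miRNAs in either direction (29.9% higher). In sham striatum/thalamus 5 were higher and 3 lower than in cerebellum, beside 62.8% of all (31.7% higher). In sham cortex 5 were higher and 1 lower than in striatum/thalamus, beside 33.1% (17.0% higher). Their median log2 difference was 0.63 for cortex minus cerebellum, 0.52 for striatum/thalamus minus cerebellum, and 0.62 for cortex minus striatum/thalamus, where that of all miRNAs was −0.11, −0.10, and 0.02. After HIBI 1 of the 10 met the criteria with a higher level in the cerebellum, 0 with a lower level, and 0 in either other region. It was miR-137-3p (log2 1.77, SE 0.702, adjusted p = 0.432 in edgeR's quasi-likelihood test). Its mean was 18.6 CPM in HIBI and 5.51 in sham cerebellum, so it passed the 10 CPM minimum only through the HIBI libraries. As for miR-128-1-5p in the striatum/thalamus, its difference carries no weight as a finding. MiR-128-3p had larger log2 differences in sham than the list's median for cortex minus cerebellum (1.42) and cortex minus striatum/thalamus (1.56). Within the list, miR-137-3p was above it in both (3.83 and 1.95). For cortex minus cerebellum, miR-212-3p (1.37), miR-138-5p (1.33), and miR-132-3p (1.32) were close to it. For striatum/thalamus minus cerebellum miR-128-3p was at −0.14, and 0.12 without sham pup 8.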

How the data were processed

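The authors aligned small RNA reads to mature mouse miRNAs of miRBase with Bowtie2 and deposited raw read counts per mature miRNA for each library, 1 table per region. The miRBase release, the versions, and how a read with several matches was counted are not given in the sources used here. Counts of near-identical miRNAs are therefore uncertain: the 5p arms of miR-128 share 16 of 21 bases, and the 3p arm is identical from both hairpins. The authors' fold changes, average log2 CPM, p-values, and false discovery rates (from edgeR) stand in the same tables and were not used. Of 1551 entries per table, the 20 castor bean entries (84 counts) were left out.

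The fits used edgeR 4.0.16 under R 4.3.3: TMM normalization, miRNAs with an average above 10 CPM, and quasi-likelihood tests, for HIBI versus sham with the 8 libraries of a region, and for regions and interactions with 6 groups in 1 model of 24 libraries (435 miRNAs). P-values were adjusted by Benjamini-Hochberg over all miRNAs tested. Standard errors are the log2 fold change divided by the root of F. Shares and ratios of arms were computed from raw counts. Alternatives used DESeq2 1.42.0, limma 3.58.1, other scalings and filters, and each pup left out. The code was tested on simulated data. No pair of replicates was alike to within sampling noise.

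Each pup contributed 3 libraries, 1 per region, which pairs the regions by design. Deviations from group means correlated by pup with a median r of 0.160 between cerebellum and striatum/thalamus, 0.270 between cerebellum and cortex, and 0.190 between striatum/thalamus and cortex, above 0.1 in 5, 7, and 5 of 8 pups.

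The miRNAs named were the arms, the members of the marker, neuron-enriched, and miR-27 lists, the 3 most correlated with each arm, and the families with a larger range of shares. The members and lists were chosen with earlier results of these data known. Of the other lists, the endothelial miRNAs (miR-126a-3p and miR-126a-5p) summed to 974 to 4830 CPM over the 24 libraries and the myeloid miRNAs (miR-223-3p, miR-142a-3p, and miR-142a-5p) to 10.6 to 52.2.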

Additional observations from a re-analysis of the deposited data

How the results depend on the processing

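The number of miRNAs that met the HIBI criteria in the cerebellum was 34. It was 18 without sham pup 2, 20 without sham pup 3, 62 without HIBI pup 1, and 82 without sham pup 6. In striatum/thalamus it was 12, and 5 without sham pup 3, 38 without HIBI pup 5, 23 without HIBI pup 7, and 19 without sham pup 8. In cortex it was 14, and 10 to 17 with a pup left out. The regional count between cortex and striatum/thalamus was 144 in sham, 77 without sham pup 8 and 89 without sham pup 2, with a highest value of 166 without HIBI pup 1. In HIBI it was 165, 97 without HIBI pup 7 and 99 without HIBI pup 4, and at most 164 with any pup left out. With a minimum of 1 CPM the HIBI counts were 61 for cerebellum, 19 for striatum/thalamus, and 41 for cortex, and with no filter 106, 54, and 86, where more miRNAs were tested. DESeq2 and the model of 24 libraries each gave 19 in the striatum/thalamus. With pup as replicate block the cerebellum gave 53. The cause was not tested.

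With a pup left out, the log2 fold change ranged from −1.39 to −0.99 for miR-128-2-5p in the cerebellum and from 1.40 to 2.03 for miR-128-1-5p in the striatum/thalamus. These ranges describe arms that were chosen on the same counts and are no support for a difference. MiR-128-1-5p also passed the 10 CPM minimum only through the HIBI libraries (24.4 CPM, sham 7.53). With pup as replicate block, the log2 fold changes of miR-128-2-5p and miR-128-1-5p in these regions were −1.21 and 1.77. The block pairs the regions of a pup and not HIBI with sham, since no pup was in both groups. The interaction of miR-128-2-5p between striatum/thalamus and cerebellum, 1.20, ranged from 0.60 (without HIBI pup 1) to 1.53 (without HIBI pup 7). At 7 to 59 counts per library, counting error limits miR-128-1-5p in the striatum/thalamus.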
